A study of Homo sapiens with 4 samples.

Results

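The 10 genes described here belong to the machinery of the glucocorticoid receptor or, in 1 case, lie beside one of its genes: FKBP5 and its chromosomal neighbour ARMC12, and the receptor chaperones FKBP4, PPID, PTGES3, HSP90AA1, HSP90AB1, STIP1, HSPA8 and BAG1. They are 10 of the 34608 genes counted, taken by gene symbol, and they hold 59 of the 119207 transcripts. The members were chosen on the dex against etoh values of these same 4 libraries, so their own levels, fold changes and transcript shares are given as a description with no p-value. Where the text says if a member passed a threshold, that is part of the description and no support. RNA-seq was done on A549, an established line of human lung adenocarcinoma cells with epithelial features. The dex group (2 libraries) received 100 nM dexamethasone, a synthetic glucocorticoid, and the etoh group (2 libraries) received 0.02% ethanol as vehicle, both for 3 h. The series concerns where the receptor binds the genome, and its RNA comparison asks which transcripts differ after hormone. Both groups are the same single cell line, and the labels leave unsaid whether replicates were separate cultures, so the errors and p-values cover the spread among these 4 libraries and may be technical.

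The glucocorticoid receptor is held in the cytoplasm by a relay of chaperones. HSP70, here its constitutive form HSPA8, loads the receptor onto HSP90 (HSP90AA1 and HSP90AB1) through the adaptor STIP1, also called HOP. PTGES3, also called p23, then stabilises the complex in which the receptor binds hormone. One of several large immunophilins docks on HSP90 in this complex. FKBP51, the product of FKBP5, lowers hormone affinity, and FKBP52, the product of FKBP4, favours the high-affinity, nuclear-going form. FKBP5 is itself a well-known target of the receptor and so closes a short negative feedback loop, with receptor binding described mainly in its introns and at distant enhancers.

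The dex libraries held 9828448 and 11138944 aligned reads, and the etoh libraries 9764159 and 11887526. Of 8 A549 and epithelial markers, 7 were at 10 CPM (reads of a gene per 1000000 aligned reads) or more in every library, all but EPCAM. That count says nothing of equal levels. CDH1, KRT7, KRT8 and KRT18 were higher in both dex libraries than in both etoh libraries, with KRT8 at 3805 and 3167 CPM in dex and 1660 and 1795 CPM in etoh. ALDH1A1, AKR1C1 and AKR1B10 were lower in both dex libraries, and the groups overlapped for EPCAM. Of 10 counted markers of other cell types, 3 were at 0 throughout, and the 10 summed to 20.5 and 23.8 CPM in dex and 12.5 and 18.0 CPM in etoh, mostly from COL1A1. Without COL1A1 the sum was 3.76 and 2.51 CPM in dex and 2.05 and 2.61 CPM in etoh, and the part of these cell type markers in the results was not tested. Across all genes, the quasi-likelihood test of edgeR, adjusted by Benjamini-Hochberg, called 1684 of 14777 tested genes at an adjusted p of 0.05 (11.4%), with 1031 higher in dex (6.98%) and 653 lower (4.42%). All ± values are SD over n = 2 libraries, and all log2 fold changes are dex over etoh with their standard error (SE).

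The start regions of FKBP5 and of 3 chaperone genes are shown because they set the hormone-responsive gene beside heat shock genes of the same machine. The chaperone windows shown are the ones in which the heat shock element matched. RefSeq (GRCh38.p14) lists 13 promoters for 8 of the 10 members, and ARMC12 and FKBP4 were not matched. Each stretch holds the 250 bases before a start, 5′ to 3′ on the gene's strand. FKBP5 has 2 listed starts, a proximal one (chr6:35688916-35689165, minus strand) and a distal one (chr6:35728584-35728833, minus strand). HSP90AA1 is shown at its downstream start (chr14:102087045-102087294, minus strand), HSP90AB1 at the most downstream of its 3 starts (chr6:44247693-44247942, plus strand) and HSPA8 at its start (chr11:123062137-123062386, minus strand). Capitals mark matches to the heat shock element TTCNNGAANNTTC on either strand, and in HSP90AB1 also TGTTCT, a single arm of the receptor's element, whose last 4 bases overlap the second heat shock element.
FKBP5 proximal: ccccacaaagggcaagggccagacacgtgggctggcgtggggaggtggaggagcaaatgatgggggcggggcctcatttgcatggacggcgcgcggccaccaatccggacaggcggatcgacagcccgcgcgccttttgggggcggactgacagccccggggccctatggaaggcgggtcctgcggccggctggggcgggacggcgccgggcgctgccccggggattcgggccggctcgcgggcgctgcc
FKBP5 distal: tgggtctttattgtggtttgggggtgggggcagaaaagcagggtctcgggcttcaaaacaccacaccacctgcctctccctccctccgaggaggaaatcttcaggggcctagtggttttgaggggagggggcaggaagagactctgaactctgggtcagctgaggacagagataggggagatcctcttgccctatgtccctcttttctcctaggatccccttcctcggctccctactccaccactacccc
HSP90AA1 downstream: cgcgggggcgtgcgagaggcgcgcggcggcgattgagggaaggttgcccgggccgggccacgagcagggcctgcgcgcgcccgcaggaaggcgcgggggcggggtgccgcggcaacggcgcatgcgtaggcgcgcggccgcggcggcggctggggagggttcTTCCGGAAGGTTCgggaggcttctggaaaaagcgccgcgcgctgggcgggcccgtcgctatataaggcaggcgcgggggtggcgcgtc
HSP90AB1 downstream: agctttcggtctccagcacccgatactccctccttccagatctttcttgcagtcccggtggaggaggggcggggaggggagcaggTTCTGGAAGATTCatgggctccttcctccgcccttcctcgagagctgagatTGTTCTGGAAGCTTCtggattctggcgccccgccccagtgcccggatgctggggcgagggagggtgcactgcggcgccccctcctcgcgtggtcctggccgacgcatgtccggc
HSPA8: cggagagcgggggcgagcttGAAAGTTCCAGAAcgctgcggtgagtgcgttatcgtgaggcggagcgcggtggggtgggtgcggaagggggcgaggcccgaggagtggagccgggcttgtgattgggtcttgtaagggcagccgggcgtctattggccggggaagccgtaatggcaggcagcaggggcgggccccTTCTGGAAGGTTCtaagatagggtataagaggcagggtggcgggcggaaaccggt

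Neither FKBP5 window held the full receptor element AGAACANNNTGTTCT or its arm TGTTCT on either strand. In the same window length, the full element was in 0.00285% of 35116 RefSeq promoters (1 promoter) and the arm in 12.4%. The heat shock element was in 0.441% of those promoters. It matched once in the HSP90AA1 window shown, 2 times in the HSP90AB1 window shown and 2 times in the HSPA8 window. The other 8 member promoters searched and not shown here, among them the other starts of HSP90AA1 and HSP90AB1, held none of the 3 motifs. These matches describe the letters of these windows, not binding.

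FKBP5 (ENSG00000096060, chr6:35573585-35728583, minus strand, GRCh38) had the largest fold change of the members. It had 2280 and 2556 reads in the dex libraries against 216 and 269 in the etoh libraries, which is 232 and 229 CPM in dex against 22.1 and 22.6 CPM in etoh. Libraries of a group lay close together and the groups were far apart. The means were 231 ± 1.78 CPM in dex and 22.4 ± 0.359 CPM in etoh, a log2 fold change of 3.38 (SE 0.11) or 10.4-fold, with a 95% interval of 8.86 to 12.3. By fold change FKBP5 stood 27th of the 14777 tested genes. In bulk RNA, a change in how many cells hold a transcript and a change in its amount per cell cannot be told apart, here as for every gene below.

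All 5 counted FKBP5 transcripts passed the transcript-level test and were higher in dex, beside 3.57% of all 49857 tested transcripts called higher, and nothing is read from that share since the contrast chose the gene. FKBP5-201 begins at the distal start, at chr6 position 35728583. FKBP5-202, FKBP5-001 and FKBP5-204 begin at positions 35688915, 35688937 and 35688942, a proximal cluster 39.7 kb into the gene. FKBP5-001, FKBP5-201 and FKBP5-202 have the same coding length of 1374 bases. Of the overlapping 35-base words in these 3 transcripts, 100%, 92.5% and 97.3% (FKBP5-001, FKBP5-201 and FKBP5-202) also occur in another FKBP5 transcript, so reads were placed among them by the aligner and not resolved. Together the 3 held 1845 and 2076 reads in dex and 187 and 236 in etoh.

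FKBP5-201, the transcript from the distal start, had 633 and 665 reads in dex and 56 and 70 in etoh, with a log2 fold change of 3.42 (SE 0.15). FKBP5-001 had 602 and 678 reads in dex and 72 and 76 in etoh (3.17, SE 0.15). FKBP5-202 had 610 and 733 reads in dex and 59 and 90 in etoh (3.23, SE 0.15). The 95% intervals of these 3 fold changes overlap, and only 297 of the 3940 bases of FKBP5-201 are in no exon of FKBP5-001, FKBP5-202 or FKBP5-204, so a difference between the starts was not detectable. FKBP5-203, a transcript with a coding length of 837 bases whose identifier was not found in GENCODE 29, had 123 and 157 reads in dex and 14 and 11 in etoh (3.53, SE 0.26).

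FKBP5-204 took a larger share of the gene's reads in dex. It had 312 and 323 reads in dex against 15 and 22 in etoh, a log2 fold change of 4.16 (SE 0.20) with a 95% interval of 3.74 to 4.57. That is 13.7% (95% exact binomial interval 12.3 to 15.2) and 12.6% (11.4 to 14.0) of FKBP5 reads in dex, against 6.94% (3.94 to 11.2) and 8.18% (5.20 to 12.1) in etoh. The dex shares were above the etoh shares in all 4 libraries, although the interval of dex replicate 2 overlaps that of etoh replicate 2. The 3 transcripts of equal coding length held 81.1% ± 0.212 of the reads in dex and 87.2% ± 0.819 in etoh. In CPM the dex to etoh ratio was 17.9 for FKBP5-204 and 9.59 for those 3 together.

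FKBP5-204 differs from the rest in what it covers. It is 7384 bases long, ends at position 35580557, short of the 3′ end of the other transcripts, and 6482 of its bases (87.8%) are in no exon of FKBP5-001, FKBP5-201 or FKBP5-202, with FKBP5-203 not compared. All 6482 lie in introns of those 3 transcripts, so reads of this isoform and reads of unspliced FKBP5 RNA cannot be told apart. Of its 35-base words, 3.13% also occur in other genes. With 2 libraries per group, leaving 1 out only returns the share of the other, so removal of a library is no further check of its share.

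**Figure D1:**
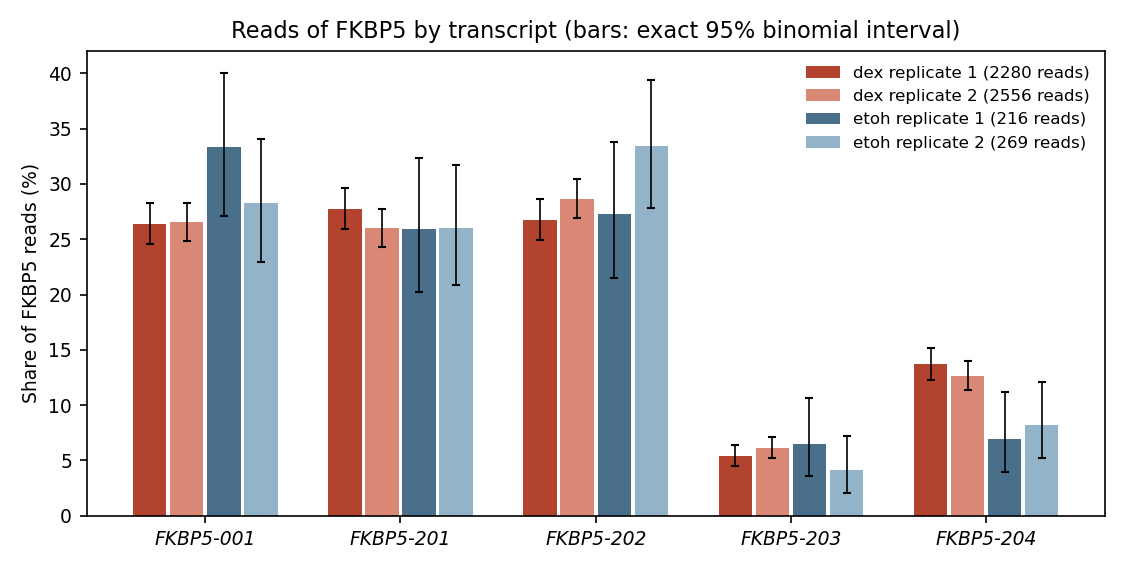
Share of FKBP5 reads on each counted transcript (vertical axis, percent) in each of the 4 libraries, with dex bars left of etoh bars and exact 95% binomial intervals. FKBP5-001, FKBP5-201 and FKBP5-202 hold most reads in every library, and FKBP5-204 holds 13.7% and 12.6% in dex against 6.94% and 8.18% in etoh.

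ARMC12, an armadillo-repeat gene known in mouse for its part in the sperm mitochondrial sheath, lies head to head with FKBP5. Its span (ENSG00000157343, chr6:35737032-35749079, plus strand) begins 8.45 kb from the distal FKBP5 start. It had 15 and 15 reads in dex and 1 and 5 in etoh, 1.53 and 1.35 CPM in dex against 0.102 and 0.421 CPM in etoh. The groups did not overlap, but the whole gene rests on 36 reads. ARMC12 passed the count filter only through its dex libraries and was chosen on this contrast, so its call and fold change are a description. The ratio of summed reads over effective library size was 5.23, with an exact conditional binomial 95% interval of 2.14 to 15.4, and the fitted log2 fold change was 2.35 (SE 0.59).

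The ARMC12 value depended on single etoh reads. Without etoh replicate 2 the ratio was 14 (2.33 to 571, on 30 and 1 reads), and without etoh replicate 1 it was 3.48 (1.34 to 11.5). The gene was called with all 4 libraries and not without etoh replicate 1 or without dex replicate 1, where the log2 fold change was 1.77 and 2.26, and DESeq2 gave it no adjusted p. Most of its reads fell on ARMC12-003, with 11 and 12 reads in dex and 0 and 4 in etoh. ARMC12-001, ARMC12-002 and ARMC12-004 had at most 2 reads in any library. No 35-base word of the 4 ARMC12 transcripts occurs in another gene.

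Between the facing starts lies an antisense gene, RP3-510O8.4 (chr6:35733867-35736947, minus strand), with 3 and 4 reads in dex and 1 and 1 in etoh, too few to test. Of 21 genes within 500 kb other than FKBP5 and ARMC12, RP3-510O8.4 among them, 7 were tested. Of the 7, edgeR called 0, beside 11.4% of all tested genes, and 7 genes are too few to read against that share. There was 1 at an unadjusted p under 0.05 in edgeR, and 0 were called by DESeq2 or by limma-voom. The median log2 fold change of the 7 was 0.06, against -0.0026 over all tested genes.

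Of the tested neighbours, SRPK1 and MAPK14 lie on the ARMC12 side and the rest beyond the 3′ end of FKBP5. SRPK1, a splicing-factor kinase whose start lies 193 kb upstream of the distal FKBP5 start, had 163 and 175 CPM in dex and 183 and 173 CPM in etoh (log2 fold change -0.05, SE 0.10, adjusted p = 0.81 in edgeR). MAPK14, the stress kinase p38 alpha, had 81.5 and 92 CPM in dex and 89.7 and 88.1 CPM in etoh (-0.02, SE 0.11, adjusted p = 0.95 in edgeR). TEAD3, a transcription factor of the Hippo pathway, had 5.60 and 4.85 CPM in dex and 3.69 and 4.29 CPM in etoh (0.40, SE 0.25, adjusted p = 0.37 in edgeR). The log2 fold changes of FANCE, a Fanconi anaemia protein, PPARD, a nuclear receptor, and ZNF76, a zinc finger protein, were 0.06, 0.09 and -0.31, each with an SE of 0.25 to 0.27.

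RPL10A, a ribosomal protein gene, came closest to a call among these neighbours. It had 497 and 390 CPM in dex and 370 and 352 CPM in etoh, a log2 fold change of 0.32 (SE 0.11, adjusted p = 0.070 in edgeR). It was called without dex replicate 2 (0.49, edgeR adjusted p = 0.0017) and with no count filter (edgeR adjusted p = 0.015). With FKBP5 and ARMC12 set apart, the intervals of the other 6 tested genes around them include 0.

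**Figure D2:**
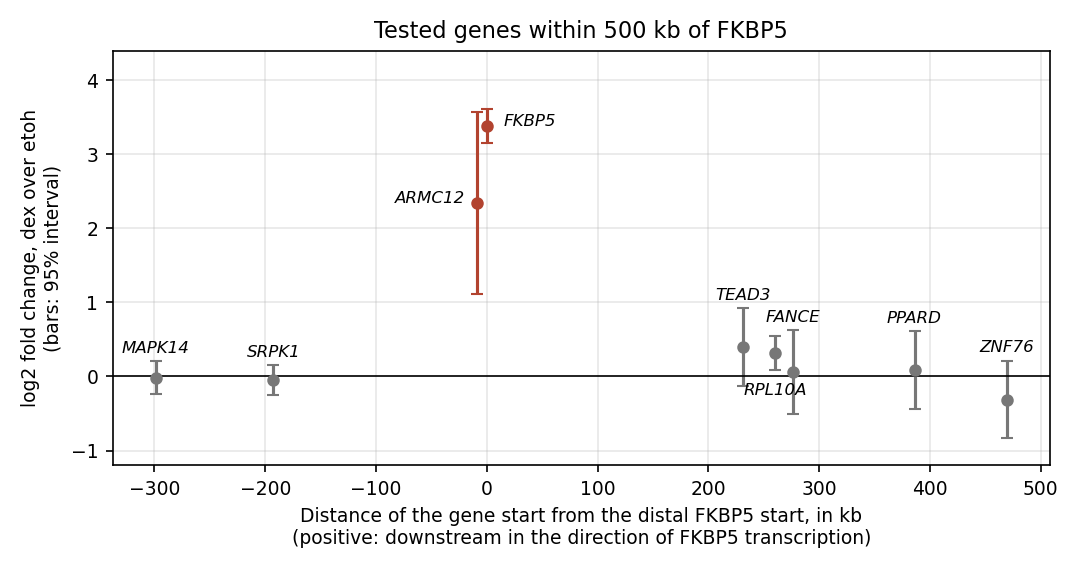
Log2 fold change, dex over etoh, with its 95% interval (vertical axis) for the tested genes within 500 kb of FKBP5, by distance of each gene's start from the distal FKBP5 start in kb (horizontal axis). FKBP5 at 3.38 and ARMC12 at 2.35, in red, were chosen on this contrast and are a description, and the 7 other genes, in grey, lie between -0.31 and 0.40 and did not pass an adjusted p of 0.05.

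Of the 10 members, 2 were called, FKBP5 and ARMC12, both higher, beside 6.98% of all tested genes called higher, a share from which nothing is read since the contrast chose the members. Of the 8 chaperones edgeR called 0, beside 11.4% of all tested genes called in either direction, and 8 genes are too few to read against it. Of these 8 genes, 0 had an unadjusted p under 0.05 in edgeR and 0 were called by DESeq2 or limma-voom. Their log2 fold changes ran from -0.10 to 0.12, with a median of -0.04 against -0.0026 over all tested genes. The 95% intervals of the 8 fold changes together span 0.803-fold, the low end for HSP90AA1, to 1.25-fold, the high end for STIP1.

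**Figure D3:**
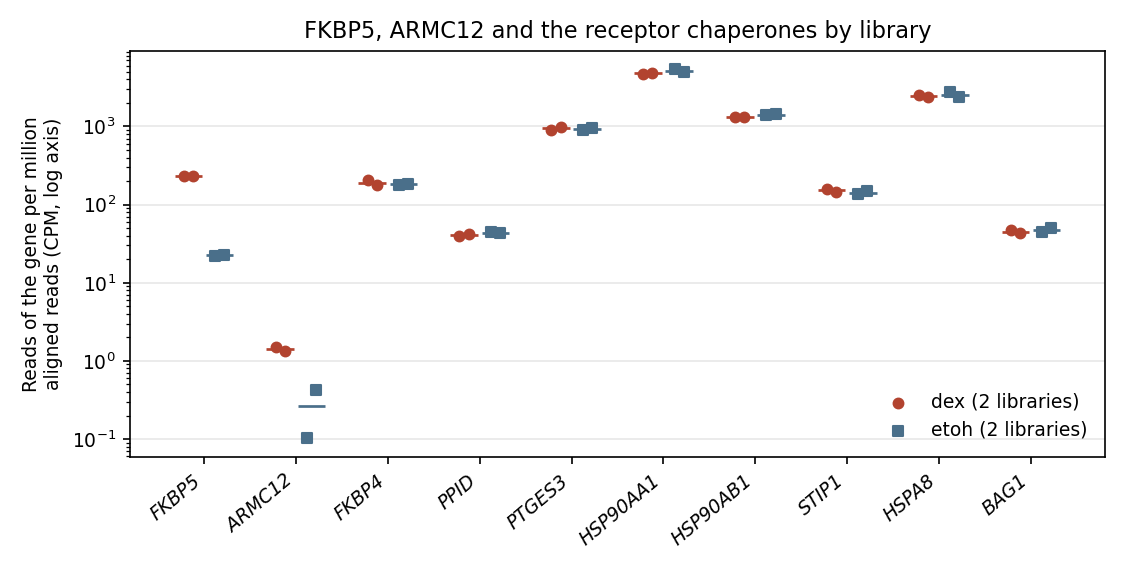
Reads of each gene per 1000000 aligned reads (vertical log axis) in each library, with 2 dex libraries (red circles) left of 2 etoh libraries (blue squares) and short lines at the group means. FKBP5 lies at 232 and 229 CPM in dex against 22.1 and 22.6 CPM in etoh, ARMC12 is near the bottom of the axis in both groups, and the 2 groups of each chaperone lie side by side.

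HSP90AA1 had the most reads of the members, and neither cytosolic HSP90 gene passed the test. HSP90AA1, the stress-inducible cytosolic HSP90 (ENSG00000080824, chr14:102080738-102139699, minus strand), had 4719 and 4826 CPM in dex and 5398 and 4981 CPM in etoh. Both dex libraries were below both etoh libraries, and the means were 4772 ± 75.8 CPM in dex and 5190 ± 295 CPM in etoh (log2 fold change -0.10, SE 0.10). HSP90AB1, the constitutive form (ENSG00000096384, chr6:44246166-44253888, plus strand), had 1332 and 1305 CPM in dex and 1401 and 1434 CPM in etoh, again without overlap. Its means were 1318 ± 18.5 CPM in dex and 1417 ± 23.5 CPM in etoh (-0.09, SE 0.10). From the lack of overlap no direction is read for either HSP90 gene. Per length, the HSP90AA1 to HSP90AB1 ratio of levels was 4.21 ± 0.224 in dex and 4.28 ± 0.346 in etoh, or 2.75 ± 0.0823 in dex and 2.79 ± 0.204 in etoh over the length of each gene's most-read transcript.

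None of the members of the loading step was called. HSPA8, the constitutive HSP70 (ENSG00000109971, chr11:123057489-123063230, minus strand), had 2506 and 2367 CPM in dex and 2729 and 2359.5 CPM in etoh. The groups overlapped, and etoh replicate 1 was the highest library (log2 fold change -0.05, SE 0.10). STIP1, the adaptor between HSP70 and HSP90 (ENSG00000168439, chr11:64185272-64204543, plus strand), had 159.8 and 144 CPM in dex and 137 and 147 CPM in etoh, also with overlap (0.12, SE 0.10). BAG1, a nucleotide exchange factor of HSP70 (ENSG00000107262, chr9:33247820-33264720, minus strand), had 46.8 and 43.6 CPM in dex and 44.0 and 50.2 CPM in etoh (-0.04, SE 0.12).

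In the late complex, with p23 and an immunophilin, none of the members other than FKBP5 was called. PTGES3 (ENSG00000110958, chr12:56663341-56688408, minus strand) had 899 and 991 CPM in dex and 892 and 945 CPM in etoh (log2 fold change 0.06, SE 0.10). FKBP4, whose protein FKBP52 competes with FKBP51 for the same HSP90 site (ENSG00000004478, chr12:2794953-2805423, plus strand), had 204 and 177 CPM in dex and 181 and 184 CPM in etoh. Dex replicate 1 was the highest and dex replicate 2 the lowest library, and the means were 190.4 ± 18.7 CPM in dex and 182 ± 2.34 CPM in etoh (0.08, SE 0.10). PPID, whose protein cyclophilin 40 is the third immunophilin of receptor complexes (ENSG00000171497, chr4:158709134-158723396, minus strand), had 39.8 and 42.6 CPM in dex and 44.2 and 42.7 CPM in etoh (-0.06, SE 0.12). These groups do not overlap, from which no direction is read.

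At the transcript level the chaperones gave no call either. They have 50 counted transcripts, of which 48 were tested and edgeR called 0, beside 2811 of all 49857 tested transcripts. Nothing is read from that 0, since the contrast chose the genes. Of the 48, 3 had an unadjusted p under 0.05 in edgeR (2 higher, 1 lower), and DESeq2 called 0. The log2 fold changes of the 48 ran from -0.53 to 0.39. Those of the 17 HSPA8 transcripts ran from -0.37 to 0.37, of the 6 STIP1 transcripts from -0.16 to 0.39, and of the 3 HSP90AB1 transcripts from -0.12 to -0.07. Most chaperones share sequence with other genes. The most-read transcript of HSP90AA1, HSP90AB1 and HSPA8 shares 33.1%, 35.6% and 35% of its 35-base words with them, led by pseudogenes. That of PTGES3 and STIP1 shares 19.6% and 9.16%. For PPID the figure was 25.5%, in part with the overlapping gene ETFDH. For FKBP4 it was 16.4%, in part with ITFG2-AS1, but over the 3732 bases that GENCODE 29 gives this transcript, which was counted over 2267 bases. Against only the genes counted here the shares of the most-read transcripts were 0.0299% for HSP90AA1 (HSP90AA1-002), 25.5% for PPID and 10.6% for FKBP4. HSP90AA1-001, with 16935 and 19690 reads in dex against 16892 and 19672 for HSP90AA1-002, shared 4.34%. HSP90AA1-003 shared 4.77%, and HSP90AA1-005 and HSP90AA1-008 shared 0%. The share of the most-read transcript was 0% for HSP90AB1, HSPA8, PTGES3 and STIP1, whose reads thus had no counted gene with the same words to go to. Reads from uncounted pseudogenes could still fall on these genes, which was not tested. FKBP5-001, FKBP5-201 and FKBP5-202 shared 0% with other genes, as did the 4 BAG1 transcripts measured, and BAG1-201, the most-read one, was not measured.

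**Figure D4:**
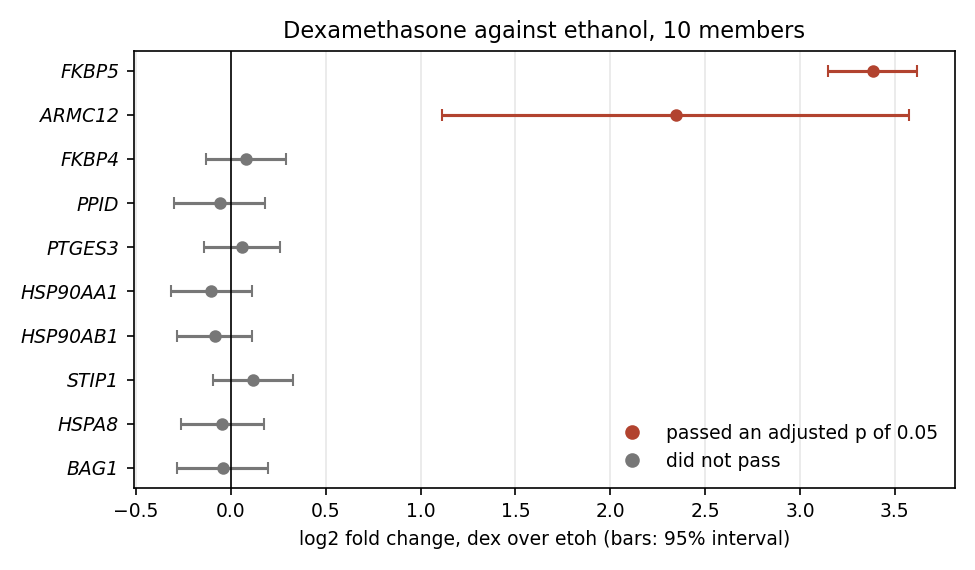
Log2 fold change, dex over etoh, with its 95% interval (horizontal axis) for the 10 members. FKBP5 at 3.38 and ARMC12 at 2.35 lie right of all 8 chaperones, which lie between -0.10 and 0.12 with intervals that include 0, and the colours describe calls on members chosen by this contrast.

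FKBP5 stood higher in the order of the members in dex than in etoh. Levels were compared between genes as reads per kilobase of transcript per 1000000 aligned reads, summed over transcripts (RPKM), a level per length. FKBP5 had 62.0 and 62.4 RPKM in dex and 6.21 and 6.07 RPKM in etoh. In dex it was the 7th of 10, below STIP1 (94.3 ± 6.40 RPKM) and above PPID (37.7 ± 0.571 RPKM) and BAG1 (24.8 ± 1.97 RPKM). In etoh it was 9th, below PPID (38.3 ± 1.33 RPKM) and BAG1 (25.3 ± 2.00 RPKM) and above ARMC12 (0.284 ± 0.100 RPKM).

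The other members kept their order in both groups: HSP90AA1, HSPA8, PTGES3, HSP90AB1, FKBP4, STIP1, PPID, BAG1 and ARMC12, with the 2 libraries of each neighbour apart from those of the next. The FKBP5 to FKBP4 ratio, which sets the competing immunophilins side by side, was 0.315 and 0.383 in dex and 0.0353 and 0.0368 in etoh. FKBP5 thus stayed below FKBP4 in RNA level per length. The FKBP5 to PPID ratio was 1.62 and 1.67 in dex and 0.158 and 0.163 in etoh. When each gene's reads were set against the length of its most-read transcript, a choice made after the data were seen, the FKBP5 to FKBP4 ratio was 0.721 ± 0.0651 in dex and 0.0727 ± 0.000231 in etoh and the FKBP5 to PPID ratio 2.67 ± 0.148 in dex and 0.245 ± 0.00995 in etoh. On that scale FKBP5 was 6th in dex, above STIP1, and HSP90AB1 stood above PTGES3 in both groups, with overlapping libraries in dex. Summed over the 8 chaperones, 0.991% and 0.990% of all aligned reads were theirs in the dex libraries, against 1.08% and 1.01% in the etoh libraries.

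The receptor gene itself fell. NR3C1, which encodes the glucocorticoid receptor and is no member, had 353 and 385 CPM in dex and 552 and 596 CPM in etoh. Both dex libraries lay below both etoh libraries, and the log2 fold change was -0.62 (SE 0.10, adjusted p = 7.7e-05 in edgeR). It stayed between -0.67 and -0.53 and was called under every alternative run for it.

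Further HSP90 proteins and co-chaperones gave a single call. This list, the HSP70 list and the FKBP and cyclophilin list were chosen with earlier results of these data known. Their calls, shares and adjusted p-values are therefore a description and no independent test. Of 23 listed genes other than the members, all 23 were tested, 1 was higher and 0 lower by edgeR, against 6.98% and 4.42% of all genes. At an unadjusted p under 0.05 there were 4 higher and 1 lower, DESeq2 and limma-voom each called 1 higher and 0 lower, and the median log2 fold change was 0.05 against -0.0026 over all genes. The called gene was UNC45A, a chaperone that works with HSP90 on myosin. It had 68.5 and 53.2 CPM in dex and 33.7 and 45.8 CPM in etoh (0.63, SE 0.14, adjusted p = 0.0039 in edgeR), and without etoh replicate 1 it was not called (0.44, edgeR adjusted p = 0.056). The list had 3 higher genes without dex replicate 2 and likewise without etoh replicate 2. The most abundant others were HSP90B1, the HSP90 of the endoplasmic reticulum, with 1154 and 1227 CPM in dex and 1122 and 1202 CPM in etoh (0.05, SE 0.10), and TOMM70A, a mitochondrial import receptor that HSP90 docks on, with 189 and 177 CPM in dex and 179.7 and 189 CPM in etoh (0.01, SE 0.10).

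The HSP70 list had calls in both directions. It too was chosen with earlier results known, so its calls and adjusted p-values are a description. Of 25 listed genes, 23 were tested, 2 rose and 3 fell by edgeR, against 6.98% and 4.42% of all genes, with a median log2 fold change of -0.10 against -0.0026 over all genes. BAG3, an HSP70 exchange factor of selective autophagy, had 179 and 173 CPM in dex and 66.8 and 74.8 CPM in etoh (1.33, SE 0.10, adjusted p = 4.2e-09 in edgeR). DNAJB1, the main stress-inducible HSP40 partner of HSP70, had 276 and 247 CPM in dex and 179.6 and 165 CPM in etoh (0.62, SE 0.10, adjusted p = 0.00015 in edgeR). Neither gene lost its call under any alternative run for it.

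The 3 genes that fell were closer to the threshold. DNAJB4, another HSP40, had 60.2 and 79.0 CPM in dex and 95.6 and 92.1 CPM in etoh (-0.41, SE 0.12, adjusted p = 0.027 in edgeR). HSPA1B, a stress-inducible HSP70, had 85.2 and 79.5 CPM in dex and 109 and 107 CPM in etoh (-0.38, SE 0.10, adjusted p = 0.020 in edgeR). It is nearly identical to HSPA1A, which did not pass with 84.2 and 84.5 CPM in dex and 102 and 91.8 CPM in etoh (-0.18, SE 0.11), so the split of reads between the copies is uncertain. BAG2, an HSP70 cofactor that was named after its values were seen, had 64.3 and 74.3 CPM in dex and 91.0 and 90.1 CPM in etoh (-0.37, SE 0.11, adjusted p = 0.030 in edgeR). Without etoh replicate 1 none of the 3 was called (edgeR adjusted p of 0.11, 0.14 and 0.16 for DNAJB4, HSPA1B and BAG2), and without dex replicate 1 only HSPA1B was. HSPA1B was also not called without dex replicate 2 (edgeR adjusted p = 0.11), nor BAG2 without etoh replicate 2 (edgeR adjusted p = 0.064). DESeq2 did not call DNAJB4 (adjusted p = 0.069) or BAG2 (adjusted p = 0.076), and with the most-read transcript in place of the gene sum edgeR did not call BAG2 (adjusted p = 0.17).

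The other FKBP and cyclophilin genes, the families of FKBP5, FKBP4 and PPID, gave 1 call. This list was likewise chosen with earlier results known, so its calls and adjusted p-values are a description. Of 29 listed genes 27 were tested, and FKBP8 and FKBPL also stand in the HSP90 list. By edgeR 0 rose and 1 fell, against 6.98% and 4.42% of all genes. At an unadjusted p under 0.05 there were 2 higher and 1 lower. DESeq2 called 0 in either direction and limma-voom 0 higher and 1 lower, and the median log2 fold change was -0.0041 against -0.0026 over all genes. Without dex replicate 2, and likewise without etoh replicate 2, 1 gene was called higher.

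FKBP14, a collagen-folding FKBP of the endoplasmic reticulum, was the gene that fell. It had 28.6 and 31.7 CPM in dex and 44.4 and 39.3 CPM in etoh (-0.45, SE 0.13, adjusted p = 0.020 in edgeR). Without dex replicate 1 or etoh replicate 1 it was not called (edgeR adjusted p of 0.13 and 0.25), nor by DESeq2 (adjusted p = 0.10). PPIA, cyclophilin A, had 1181 and 1243 CPM in dex and 1259 and 1126 CPM in etoh (0.04, SE 0.10). FKBP1A, the rapamycin-binding FKBP12, had 441 and 459 CPM in dex and 535 and 457 CPM in etoh (-0.12, SE 0.10).

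The genes most like FKBP5 in these libraries were EDN2, FGD4, PER1, CIDEC and ARRB1. Likeness was the root mean square distance in log2(CPM + 1), centred on each gene's mean over the 4 libraries, among 9282 tested genes whose mean reached 10 CPM, and it was 0.09, 0.10, 0.16, 0.18 and 0.24 for the 5. Because likeness takes in the dex against etoh difference, their values are a description. EDN2, the vasoactive peptide endothelin 2, had 44.6 and 46.9 CPM in dex and 3.99 and 3.36 CPM in etoh. FGD4, an activator of the GTPase CDC42, had 129.6 and 135 CPM in dex and 12.4 and 10.6 CPM in etoh.

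PER1, a repressor in the circadian clock, had 75.7 and 74.4 CPM in dex and 5.22 and 5.13 CPM in etoh. CIDEC, a lipid droplet protein, had 44.5 and 38.3 CPM in dex and 2.46 and 2.36 CPM in etoh. ARRB1, the receptor adaptor beta-arrestin 1, had 58.8 and 52.6 CPM in dex and 7.37 and 5.55 CPM in etoh. The log2 fold changes of the 5 were 3.66, 3.55, 3.87, 4.12 and 3.14 in the order of likeness, beside 3.38 for FKBP5.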

How the data were processed

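RNA-seq was measured in 2 dex and 2 etoh libraries. The deposited files hold raw read counts per transcript, with no normalization, from the authors' alignment. Per the labels' protocols mRNA libraries were made from DNase-treated total RNA, and the tools listed in the submitters' processing notes were Bowtie, CASAVA, DESeq2 and SAMtools. Settings, annotation release and strand handling: not given in the sources used here.

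The members and the gene lists were chosen with earlier results of these data known. Counts were summed over the transcripts of each gene identifier and tested with edgeR 4.0.16 in R 4.3.3: TMM factors, filterByExpr (minimum count 10), quasi-likelihood test, two-sided, prior count 0.125, Benjamini-Hochberg adjustment over all 14777 genes, threshold 0.05. The 49857 tested transcripts were fitted likewise. The common biological coefficient of variation came to 8.08%. The SE is the absolute log2 fold change over the square root of the F statistic, and 95% intervals use the fit's degrees of freedom. Library size was the aligned total. The row of unaligned reads (17.2% and 18.7% of reads in dex, 18.5% and 17.2% in etoh) was left out. Intervals on shares and ratios are exact and cover counting error only. They take each count as a separate read, which the sources used here do not state. A count of 0 allows up to 3 reads.

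Libraries were checked for duplicates: over genes, chi-square per degree of freedom was 5.37 for the dex pair, 6.97 for the etoh pair and at least 15.2 for pairs across groups. Positions are from GENCODE 29 on GRCh38, which held 94.8% of gene identifiers, and promoters from RefSeq on GRCh38.p14. Both were used for annotation only, as were 35-base words of transcripts. Named genes were the members, up to 4 called genes of smallest p from each list (or 2 abundant ones where fewer than 2 were called), tested neighbours within 500 kb of FKBP5, the 5 genes most like FKBP5 and NR3C1.

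Alternatives were library totals, upper-quartile factors or DESeq2 size factors as scaling, no count filter, 1 CPM in 2 libraries, DESeq2 1.42.0, limma-voom (limma 3.58.1), the most-read transcript per gene, the replicate number as a block and removal of each library. Where a group kept 1 library, the spread was taken from the other group. The fits were tested on simulated data.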

Additional observations from a re-analysis of the deposited data

How the results depend on the processing

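As a description, since the contrast chose the members, the log2 fold change of FKBP5 lay between 3.25 and 3.40 under the 13 alternatives run, and none of the 8 chaperones was called under any of them. Of the 14777 genes, 1684 were called with TMM and edgeR, 999 with DESeq2, and 1111 (without etoh replicate 1) to 1965 without single libraries. Transcripts called numbered 2811, 1219 with DESeq2, and 1819 (without etoh replicate 1) to 3393 without single libraries. Members called numbered 2, and 1 with DESeq2 (which gave ARMC12 no adjusted p) and 1 to 2 without single libraries. Neighbours called numbered 0, 1 with no count filter (RPL10A) and 0 to 1 without single libraries. In the HSP90 list, higher calls numbered 1, 2 with no count filter and 0 to 3 without single libraries. In the HSP70 list, lower calls numbered 3, 1 with DESeq2 and 0 to 3 without single libraries. In the FKBP and cyclophilin list, higher calls numbered 0, 1 with no count filter and 0 to 1 without single libraries, and lower calls 1, 0 with DESeq2 and 0 to 1 without single libraries. The FKBP5 to FKBP4 ratio per length was 0.349 in dex and 0.0361 in etoh, and 0.721 in dex and 0.0727 in etoh with the length of the most-read transcript. With that length the FKBP5 to PPID ratio was 2.67 in dex and 0.245 in etoh (1.65 and 0.160 without it), and the HSP90AA1 to HSP90AB1 ratio 2.75 in dex and 2.79 in etoh, changes made by the definition of length alone. The cause of the other changes was not tested.

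Libraries share replicate numbers, but nothing in the labels pairs them, and over 9283 genes the within-group differences of replicates 1 and 2 had a correlation of -0.284 between dex and etoh. With the replicate block 1558 genes, 2632 transcripts and 2 members were called, as were 1 lower gene in the HSP70 list (HSPA1B, at an edgeR adjusted p that rounds to 0.05 from above, and BAG2, at 0.064, were lost) and, as without the block, 1 higher in the HSP90 list. With the numbers crossed, a replicate block added after the data were seen, 2710 genes and 2 members were called. Adding pseudogene reads to the chaperones was not run, because no gene counted here carries such a name. Depth limits ARMC12 (36 reads) and FKBP5-204 in etoh (37 reads).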
